A study of Homo sapiens with 18 samples.

Results

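Tripartite motif (TRIM) proteins carry a B-box and a coiled coil, most of them behind a RING finger that makes them ubiquitin ligases. Many bind virus components or tag the sensors and adaptors of innate immunity with ubiquitin, and part of the family is switched on by type I interferon. In skin, keratinocytes are the cells in which papillomaviruses replicate, and they answer interferon through its receptor, JAK kinases and a transcription factor complex that binds the interferon-stimulated response element (ISRE) in promoters. The 8 genes described are the antiviral TRIM genes TRIM5, TRIM14, TRIM21, TRIM22, TRIM26, TRIM34, TRIM38 and TRIM56. They were picked by symbol from a table of 16472 genes, with earlier results of these data known. All 8 were present and passed the filter on low values, as did 13280 genes in all. TRIM14 lacks the RING finger, so the group is not one of ubiquitin ligases throughout.

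RNA was sequenced from NIKS, an established keratinocyte line from normal human skin that became immortal in culture and is grown over irradiated J2/3T3 mouse fibroblasts. The cells were WT for SP100 or carried an Sp100 knockout (KO), and each genotype was left untreated (0 h) or given human interferon alpha 2a at 25 ng/mL for 12 or 48 h. SP100 is a constituent of PML nuclear bodies, and the series concerns its Sp100A isoform and the histone chaperone HIRA. Each of the 6 groups had 3 replicates, labelled as biological, for 18 libraries. Library names give 1 line for each genotype, and what else may differ between the WT and KO lines cannot be told apart from SP100. Untreated libraries of 12 or 48 h were not analysed here, so interferon cannot be told apart from longer culture. RNA came from whole cultures, in which fewer cells of a type and less RNA per cell cannot be told apart.

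Levels are RPKM, read densities corrected for gene length and library size, so they can be set side by side between genes. Total reads per library are unknown, and relative depth recovered from the low values spanned 1.53-fold. SP100 itself was at 27.9 to 31.9 RPKM in untreated WT and at 14.2 to 16.0 RPKM in untreated KO, so its RNA was lower by 0.94 on the log2 scale and not absent. In KO it reached 86.5 to 93.2 RPKM at 12 h and 57.4 to 62.4 RPKM at 48 h, above untreated WT and below WT at the same times (151 to 172 and 124 to 131 RPKM). All 12 keratinocyte markers were present at a summed 15273 to 18249 RPKM. Only 3 of 10 fibroblast markers were listed, at a summed 5.84 to 8.93 RPKM. These are human genes, so they do not measure RNA of the mouse feeder fibroblasts, whose part was not tested. Of 12 leukocyte markers CD14, CD68 and ITGAM were listed, at a summed 24.3 to 25.5 RPKM in untreated WT, 54.1 to 59.2 RPKM in WT at 12 h, 19.7 to 21.2 RPKM in untreated KO and 45.2 to 51.8 RPKM in KO at 12 h. CD68 was higher at 12 h (19.5 and 52.9 RPKM on average in WT, 15.0 and 47.9 RPKM in KO), whereas CD14 was lower (5.09 and 2.4 RPKM in WT, 5.21 and 1.43 RPKM in KO). The defining leukocyte genes PTPRC and CD3E were not listed in the table. The part of other cell types in the results was not tested.

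Because all 8 members were higher in interferon than untreated, their promoters were read for the ISRE. RefSeq windows from 250 bases before to 50 after the gene start, on GRCh38.p14, were found for 7 of the 8 members, all but TRIM22. The ISRE core, GAAA followed by 2 bases of any kind (NN) and GAAA again, was searched on both strands. It stood in a window of 5 of the 7 members, which have 8 windows together, against 3.57% of 35116 windows of that length. A member was counted if any of its windows held the core. The same stretch is shown for each of the 5, with the core in capitals and the sequence read 5′ to 3′ on the strand that holds it.
TRIM5, chr11:5685082-5685111, plus strand, core 27 bases before the start: ctcagggcagGAAAGTGAAAgataaactat
TRIM14, chr9:98119229-98119258, plus strand, 26 bases before the start: gctcccaaggGAAACCGAAAcctcggccgt
TRIM21, chr11:4393666-4393695, minus strand, 18 bases after the start: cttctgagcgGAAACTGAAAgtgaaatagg
TRIM26, chr6:30213581-30213610, plus strand, 194 bases before the start: cagcgaaatgGAAACTGAAAtcaggcggga
TRIM34, chr11:5624901-5624930, minus strand, 90 bases before the start: cctgagaaatGAAAGTGAAAtttttggggc
The core of TRIM21 overlaps a further match, GAAAGTGAAA, and the core of TRIM26 overlaps GAAATGGAAA. TRIM34 has a further RefSeq start whose window held no core.

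TRIM38 and TRIM56 held only the shorter element AANNGAAA, which is the end part of the core and so occurs in every core. It was found in 7 of the 7 members and in 22.8% of all windows, which makes it a weak mark. Their stretches are shown for contrast, with that element in capitals.
TRIM38, chr6:25962763-25962792, minus strand, 28 bases before the start: attaaactgagAAGTGAAActactgtggga
TRIM56, chr7:101085466-101085495, minus strand, 4 bases before the start: aaaagaaacaaAACTGAAActaattgtact
The interferon gamma type element TTCNNNGAA was in the windows of 0 of the 7 members and in 7.66% of all windows. These matches describe letters only, and a missing match says only that the letters are not in the window.

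TRIM22, whose protein represses the transcription and replication of several viruses, was the most abundant member in every group (the plot of RPKM in each library). In WT it stood at 51.9, 42.4 and 47.8 RPKM untreated, 349.5, 348 and 349 RPKM at 12 h, and 216, 237 and 226 RPKM at 48 h. In KO it stood at 44.7, 39.3 and 40.9 RPKM untreated, 333, 348 and 336 RPKM at 12 h, and 214, 194 and 202 RPKM at 48 h. The 3 times did not overlap in either genotype, and the order was 12 h, then 48 h, then untreated. The mean level at 12 h was 7.36 times the untreated mean in WT and 8.14 times in KO.

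**Figure D1:**
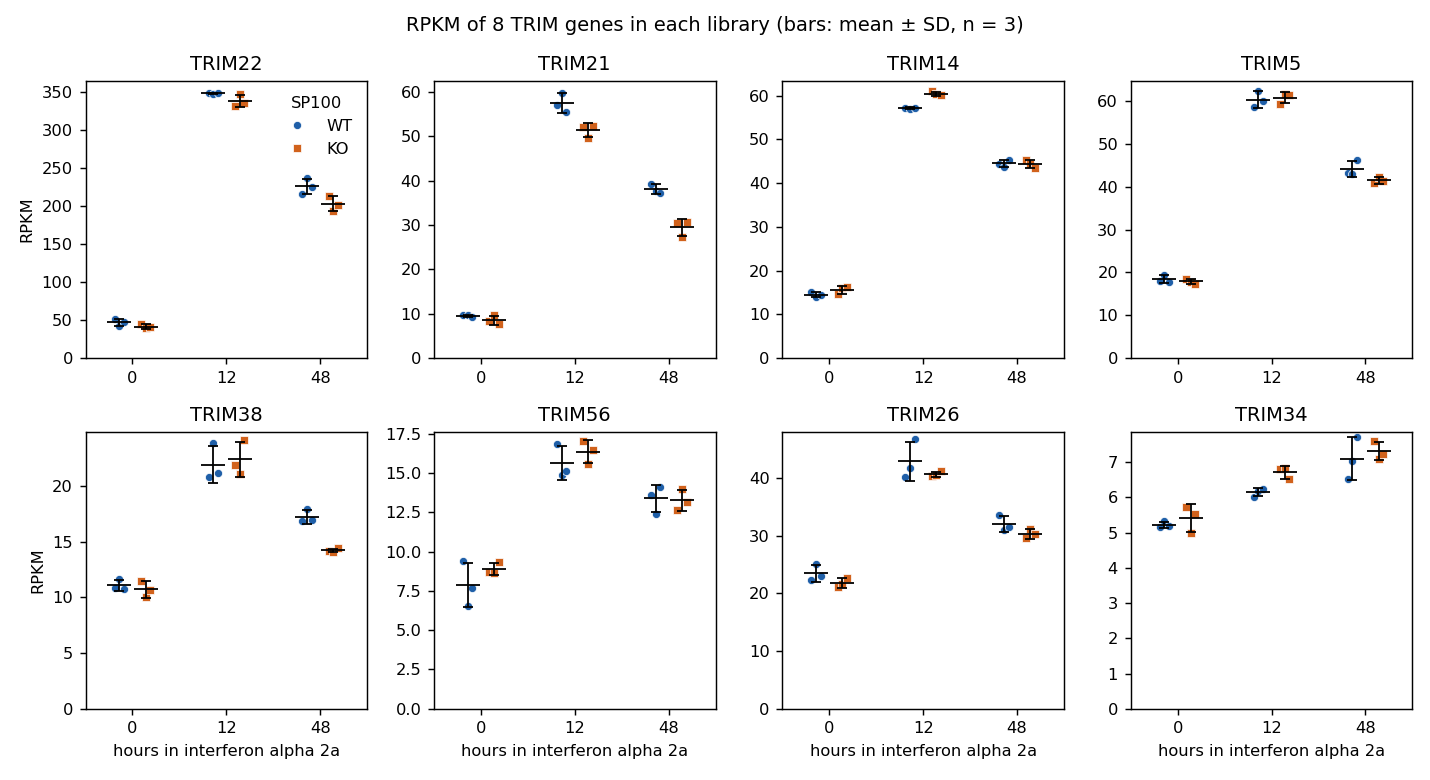
RPKM (linear axis from 0) of each of the 8 TRIM genes against hours in interferon alpha 2a, 1 point per library (circles WT, squares KO), with bars for the mean and SD of 3 libraries. TRIM22 reaches 349.5 RPKM at 12 h, 7 genes are lower at 48 h than at 12 h, and TRIM34 is highest at 48 h.

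TRIM21, a cytosolic Fc receptor that marks antibody-coated virus for the proteasome, was among the scarcest members before interferon and among the more abundant after it. WT libraries held 9.66, 9.73 and 9.25 RPKM untreated, 57.1, 59.9 and 55.5 RPKM at 12 h, and 39.4, 37.8 and 37.2 RPKM at 48 h. KO libraries held 8.28, 9.63 and 7.75 RPKM untreated, 52.2, 49.7 and 52.4 RPKM at 12 h, and 30.4, 27.4 and 30.7 RPKM at 48 h. The genotypes overlapped when untreated and did not at 12 or 48 h, where every KO library was below every WT library. The share of all genes whose genotypes do not overlap was not computed, so such separation, here and below, is no test of genotype. The 12 h mean was 6.02 times the untreated mean in WT and 6.01 times in KO.

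TRIM14, an adaptor at mitochondria in signalling from RIG-I and MAVS, stood at 57.3, 57.0 and 57.2 RPKM at 12 h in WT. Its other WT libraries held 15.2, 13.9 and 14.4 RPKM untreated and 44.4, 43.7 and 45.4 RPKM at 48 h. In KO it was at 14.6, 16.1 and 16.2 RPKM untreated, 61.0, 60.4 and 60.1 RPKM at 12 h, and 45.4, 44.5 and 43.6 RPKM at 48 h. The genotypes did not overlap at 12 h, with KO the higher (limma adjusted p = 0.36, not called), and overlapped at the other times.

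TRIM5, which binds retroviral capsids and restricts infection, had WT levels of 18.0, 19.5 and 17.8 RPKM untreated, 58.6, 62.4 and 59.9 RPKM at 12 h, and 43.2, 43.0 and 46.4 RPKM at 48 h. KO levels were 18.5, 17.8 and 17.4 RPKM untreated, 59.4, 61.8 and 61.4 RPKM at 12 h, and 40.8, 42.4 and 41.3 RPKM at 48 h. Times were separate in both genotypes. Genotypes overlapped at 0 and 12 h and not at 48 h, where KO was the lower (limma adjusted p = 0.346, not called).

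TRIM38, a brake on Toll-like receptor signalling that also modifies cGAS and STING, had WT levels of 10.8, 11.7 and 10.8 RPKM untreated, 20.8, 23.8 and 21.1 RPKM at 12 h, and 16.9, 17.9 and 16.9 RPKM at 48 h. KO levels were 11.5, 10.0 and 10.7 RPKM untreated, 21.9, 21.1 and 24.2 RPKM at 12 h, and 14.2, 14.1 and 14.4 RPKM at 48 h. The 48 h levels of the genotypes did not overlap, and the other times did. TRIM26, reported to act on TBK1 and IRF3, was the second most abundant member before interferon, at 22.4, 25.1 and 22.9 RPKM in WT and 21.1, 21.6 and 22.7 RPKM in KO. It stood at 40.2, 41.7 and 46.7 RPKM in WT and 40.3, 40.5 and 41.2 RPKM in KO at 12 h, and at 33.5, 31.0 and 31.5 RPKM in WT and 29.5, 31.2 and 30.2 RPKM in KO at 48 h. Its genotypes overlapped at all 3 times.

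TRIM56, which ubiquitinates cGAS and STING, held 9.38, 6.54 and 7.70 RPKM untreated, 16.9, 14.8 and 15.1 RPKM at 12 h, and 13.6, 12.4 and 14.1 RPKM at 48 h in WT. In KO it held 8.70, 8.61 and 9.32 RPKM untreated, 17.0, 15.6 and 16.4 RPKM at 12 h, and 12.6, 14.0 and 13.1 RPKM at 48 h. Untreated WT was its most scattered group, and its genotypes overlapped at all 3 times.

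TRIM34, a close relative of TRIM5 that acts with it against some lentiviral capsids, was the scarcest member in every group. WT libraries held 5.17, 5.33 and 5.19 RPKM untreated, 6.02, 6.19 and 6.23 RPKM at 12 h, and 6.51, 7.04 and 7.73 RPKM at 48 h. KO libraries held 5.73, 4.98 and 5.54 RPKM untreated, 6.80, 6.85 and 6.51 RPKM at 12 h, and 7.59, 7.10 and 7.24 RPKM at 48 h. It was the only member whose mean was higher at 48 h than at 12 h. Its genotypes did not overlap at 12 h, with KO the higher (limma adjusted p = 0.414, not called), and overlapped at the other times.

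In WT cells all 8 members rose at 12 h, by 0.20 to 2.86 in log2(RPKM + 1), the scale of all changes that follow. Of all genes tested 44.9% were called in either direction and 15.1% were called higher. In KO cells all 8 rose as well, by 0.27 to 3.00, where 16% of genes were called higher. With median-of-ratios scaling 21.3% and 23.4% of genes were called higher, and all 8 members still were. At 48 h the 8 were still above untreated cells in WT, against 6.52% of genes, and in KO, against 5.9%. The members' median change was 1.29 in WT and 1.35 in KO at 12 h and 0.96 and 0.85 at 48 h, beside medians over all genes tested of -0.085, -0.095, -0.003 and -0.012. The members were chosen with earlier results of these data known, so their counts beside these shares are no test of the group. No member was unresponsive by limma's threshold, so the comparison within the group is of larger against smaller responses.

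The largest 12 h responses were those of TRIM22, with 2.86 ± 0.06 (SE) in WT (adjusted p = 1.24e-15) and 3.00 ± 0.06 in KO (adjusted p = 6.12e-16). TRIM21 rose by 2.47 ± 0.06 in WT and 2.46 ± 0.06 in KO, TRIM14 by 1.91 ± 0.04 and 1.89 ± 0.04, and TRIM5 by 1.66 ± 0.04 and 1.71 ± 0.04. These 4 rose by at least 1 in both genotypes, as did 1.64% of genes in WT and 1.75% in KO taken separately. TRIM38 was just outside, at 0.92 in WT and 0.996 in KO, and TRIM5 was the member just inside. With median-of-ratios scaling TRIM38 was at 1.007 in WT and 1.094 in KO and so passed this cut too. TRIM56 rose by 0.92 and 0.81 and TRIM26 by 0.84 and 0.87. Ranked by change among 13280 genes in WT, TRIM22 was at place 62, TRIM21 at 70, TRIM14 at 107 and TRIM5 at 134, TRIM38, TRIM56 and TRIM26 fell between 284 and 325, and TRIM34 was at 2276.

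**Figure D2:**
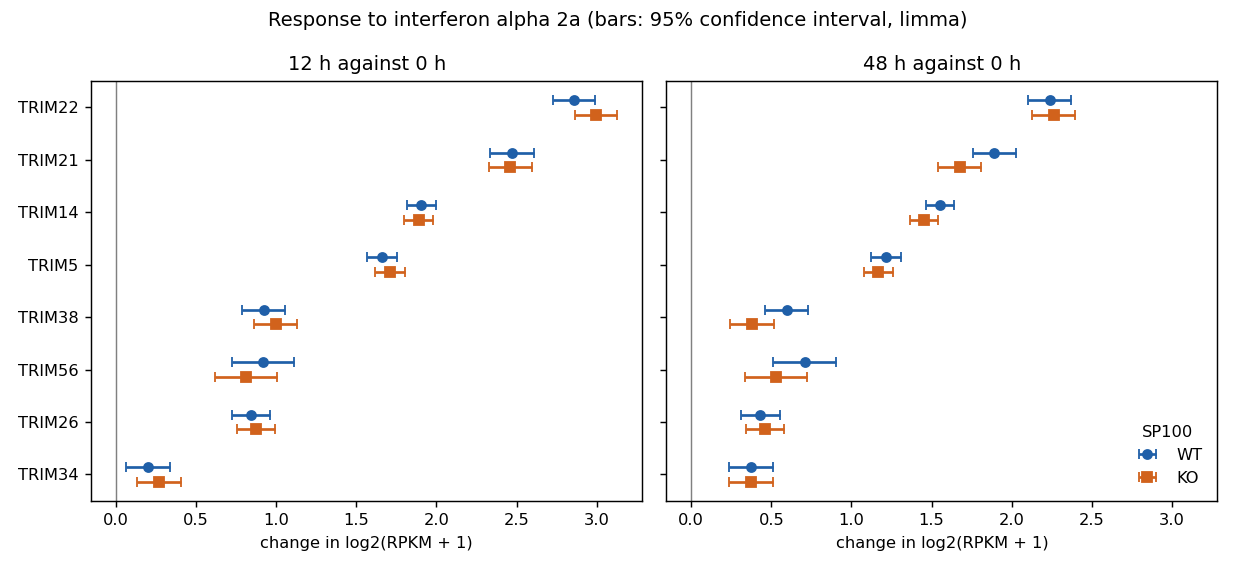
Change in log2(RPKM + 1) from untreated cells at 12 h (left) and 48 h (right), with limma's 95% confidence interval, for WT (circles) and KO (squares). At 12 h TRIM22, TRIM21, TRIM14 and TRIM5 lie at 1.66 or above, TRIM38, TRIM56 and TRIM26 between 0.81 and 1.00, and TRIM34 at 0.20 and 0.27.

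TRIM34 had the smallest response, 0.20 ± 0.06 (adjusted p = 0.02) in WT and 0.27 ± 0.06 (adjusted p = 0.00271) in KO at 12 h. The WT call is lost in 4 of 25 alternatives, with an adjusted p of up to 0.0555. At 48 h its change was 0.38 ± 0.06 in WT (adjusted p = 0.000834) and 0.37 ± 0.06 in KO (adjusted p = 0.000829), kept in all 25. TRIM34 has the ISRE core in the window of 1 RefSeq start and not in that of its further start. TRIM38 and TRIM56, whose 12 h changes were larger, have the shorter element alone. Whether reads of the TRIM6-TRIM34 read-through gene, which lies on the same strand, entered its values was not tested.

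The upstream 250 bases of TRIM14 and TRIM34 are written on each gene's strand, where the capitals are the core read from the other strand. For TRIM34 they belong to the start whose window held the core.
TRIM14, chr9:98119223-98119472, minus strand: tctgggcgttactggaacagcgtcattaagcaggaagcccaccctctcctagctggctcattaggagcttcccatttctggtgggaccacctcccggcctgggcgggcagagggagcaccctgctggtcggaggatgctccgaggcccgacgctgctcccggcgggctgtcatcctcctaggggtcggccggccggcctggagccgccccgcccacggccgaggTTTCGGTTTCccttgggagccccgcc
TRIM34, chr11:5624751-5625000, plus strand: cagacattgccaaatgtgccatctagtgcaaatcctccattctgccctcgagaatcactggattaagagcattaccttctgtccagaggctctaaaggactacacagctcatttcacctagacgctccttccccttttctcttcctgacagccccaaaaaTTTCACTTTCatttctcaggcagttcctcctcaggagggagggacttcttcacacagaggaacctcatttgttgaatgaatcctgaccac
The core stands nearer the start in TRIM14 than in TRIM34. In TRIM26, whose 12 h change was larger than that of TRIM34, it lies farther away still. Whether the presence or the place of the core bears on the response was not tested, nor which start of TRIM34 these cells use.

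Neighbours in the order of response were compared by exact permutation of time within genotype, with 400 assignments and a smallest possible p of 0.005. The order was taken from the same values, so the direction of each gap was set in advance. These p set the gaps beside the spread of the libraries and do not test the order. At 12 h, averaged over genotypes, TRIM22 exceeded TRIM21 by 0.46, TRIM21 exceeded TRIM14 by 0.57, TRIM14 exceeded TRIM5 by 0.21, TRIM5 exceeded TRIM38 by 0.73 and TRIM26 exceeded TRIM34 by 0.62, each with the smallest p (adjusted p = 0.007 over 7 pairs, two-sided). TRIM38 and TRIM56 differed by 0.10 (exact permutation p = 0.38) and TRIM56 and TRIM26 by 0.01 (exact permutation p = 0.96). These gaps were not beyond the spread of the libraries. At 48 h the gaps among TRIM56, TRIM38, TRIM26 and TRIM34 were 0.13, 0.04 and 0.07 (exact permutation p = 0.205, 0.5 and 0.27). None of those was beyond that spread. No ranking is drawn from the gaps with the smallest p either.

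Summed over the 8 members, mean RPKM went from 138 ± 4.4 (SD, n = 3) untreated to 610.2 ± 3.72 at 12 h and 423 ± 8.10 at 48 h in WT. The KO sums were 131 ± 2.49, 598 ± 6.44 and 384 ± 9.64. TRIM22 made up 34.4% of the sum in untreated WT and 57.1% at 12 h. TRIM26 went the other way in share, from 17.1% to 7%, although its level rose. By level, untreated WT cells ranked TRIM22, TRIM26, TRIM5, TRIM14, TRIM38, TRIM21, TRIM56 and TRIM34, and only TRIM21 and TRIM56 overlapped as neighbours. At 12 h TRIM5, TRIM21 and TRIM14 followed TRIM22 and overlapped as neighbours, ahead of TRIM26.

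Between 12 and 48 h in WT 6 members fell and TRIM34 rose, where 11.3% of genes were called lower and 24.6% higher. With median-of-ratios scaling 7 members fell and 0 rose in WT, where 18% of genes were called lower and 16.2% higher. In KO 7 fell, against 14% of genes called lower and 27.7% higher, and with that scaling 7 fell, against 20.9% lower and 19.3% higher. The largest declines were those of TRIM22 (-0.62 in WT and -0.74 in KO) and TRIM21 (-0.58 and -0.78). TRIM56 changed by -0.21 in WT (adjusted p = 0.0875), which is past the threshold in 3 of 25 alternatives, and fell by 0.28 in KO (adjusted p = 0.0205), a call lost in 4 of 25. TRIM34 rose by 0.18 in WT (adjusted p = 0.0423), a call lost in 13 of 25 alternatives, and was at 0.11 in KO (adjusted p = 0.204). With median-of-ratios scaling the WT value was 0.10 (adjusted p = 0.224).

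As a share of the 12 h gain in mean RPKM, measured from the same untreated libraries, the level kept at 48 h in WT was 71.1% for TRIM56, 70.3% for TRIM14, 61.5% for TRIM5, 59.6% for TRIM21, 59.4% for TRIM22, 56.9% for TRIM38 and 43.9% for TRIM26. In KO the shares were 58.6%, 64.3%, 55%, 48.8%, 54.4%, 30% and 45.1% in the same order. Among these 7 members the widest gap between genotypes was in TRIM38. For TRIM34 the 48 h gain was 203% of the 12 h gain in WT and 145% in KO, on gains of 0.92 and 1.3 RPKM at 12 h.

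KO and WT cells were compared at each time. Untreated, 0 of the 8 members were called by limma, against 4.89% of genes. An unadjusted p under 0.05 was found for 3 members and for 2400 of 13280 genes. At 12 h 0 were called, against 3.62% of genes, and 1 had an unadjusted p under 0.05, against 2256 of 13280 genes. At 48 h TRIM21 and TRIM38 were lower in KO, 2 of 8 against 4.19% of genes called in either direction and 2.16% called lower. There 3 members had an unadjusted p under 0.05, against 2173 of 13280 genes. The members' median difference at 48 h was -0.08, beside 0.01 over all genes tested.

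TRIM21 was lower in KO at 48 h by 0.36 ± 0.06 (SE, 95% interval -0.50 to -0.23, adjusted p = 0.00262), with a KO mean of 29.5 ± 1.85 RPKM against 38.1 ± 1.12 RPKM (SD, n = 3), or 77.4% of WT. The call held in all 25 alternatives, with differences of -0.39 to -0.31. Untreated and 12 h differences were -0.15 (95% interval -0.28 to -0.01, adjusted p = 0.226) and -0.16 (95% interval -0.29 to -0.02, adjusted p = 0.211), not past the threshold. TRIM38 was lower in KO at 48 h by 0.26 ± 0.06 (95% interval -0.40 to -0.12, adjusted p = 0.0292), at 82.5% of WT. That call is lost in 8 of 25 alternatives: without any single 48 h library (adjusted p = 0.0564 to 0.128), with the 48 h libraries alone (adjusted p = 0.0637) and with a replicate block (adjusted p = 0.054).

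**Figure D3:**
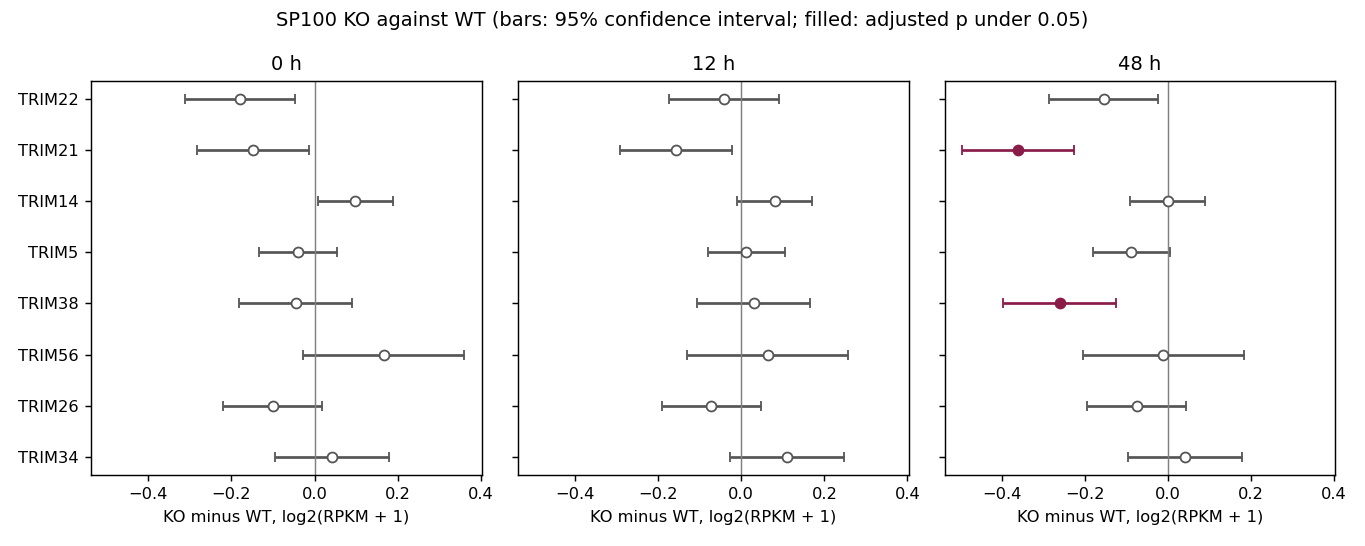
KO minus WT difference in log2(RPKM + 1) of the 8 TRIM genes at 0, 12 and 48 h, with limma's 95% confidence interval and filled points where the adjusted p is under 0.05. The filled points are TRIM21 (-0.36) and TRIM38 (-0.26) at 48 h.

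TRIM22 was at -0.18 untreated (adjusted p = 0.124), -0.04 at 12 h and -0.15 at 48 h (adjusted p = 0.213), and its KO libraries were all below the WT libraries at 48 h. TRIM14 was at 0.10 untreated (95% interval 0.01 to 0.19, adjusted p = 0.223), 0.08 at 12 h and 0.00 at 48 h. The intervals of TRIM5 reached from -0.18 to 0.11 over the 3 times, those of TRIM26 from -0.22 to 0.05, those of TRIM34 from -0.10 to 0.25 and those of TRIM56 from -0.21 to 0.36.

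The difference in response between genotypes was tested as an interaction. At 12 h 0 of 8 members were called by limma, against 0.0753% of genes. An unadjusted p under 0.05 was found for 764 of 13280 genes and for 0 members. At 48 h 0 of 8 were called, against 0.0828% of genes. An unadjusted p under 0.05 was found for 826 of 13280 genes and for 2 members. These 2 were TRIM38, with a KO response smaller by 0.22 (95% interval -0.41 to -0.02, adjusted p = 0.76), and TRIM21, smaller by 0.21 (95% interval -0.40 to -0.02, adjusted p = 0.76). The lower TRIM21 and TRIM38 at 48 h was therefore not shown to be a weaker response. At 12 h TRIM22 had the largest interaction of the 8, 0.14 (95% interval -0.05 to 0.32, adjusted p = 0.937).

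Outside the 8, 36 further TRIM genes were listed and 33 were tested. In WT at 12 h 6 rose and 11 fell with a median of -0.11, beside 15.1% of all genes called higher, 29.8% called lower and an all-gene median of -0.085. With median-of-ratios scaling 6 rose and 5 fell, so the number that fell depends on the scaling. Of all 13280 genes 2835 rose and 2764 fell with that scaling. In KO at 12 h 6 rose and 10 fell, where 16% of all genes were called higher and 32.8% lower. With that scaling 7 rose and 9 fell in KO, against 3104 and 3074 of 13280 genes. At 48 h 3 rose and 2 fell in each genotype. There 6.52% of all genes in WT and 5.9% in KO were called higher, and 6.3% and 7.42% lower. TRIM69, which inhibits vesicular stomatitis virus, rose by 1.79 in WT and 1.70 in KO at 12 h, and TRIM25, which ubiquitinates RIG-I, by 1.68 and 1.61. TRIM31, a ligase of MAVS, fell by 0.83 and 0.64, at levels of 1.11 ± 0.27 RPKM or less on average in WT. TRIM4 fell by 0.56 and 0.47. TRIM16L was higher in untreated KO by 0.59 (adjusted p = 0.000984) and TRIM16 in KO at 12 h by 0.23 (adjusted p = 0.0157), the only calls between genotypes among these 33. Of all genes 4.89%, 3.62% and 4.19% were called between genotypes at 0, 12 and 48 h.

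**Figure D4:**
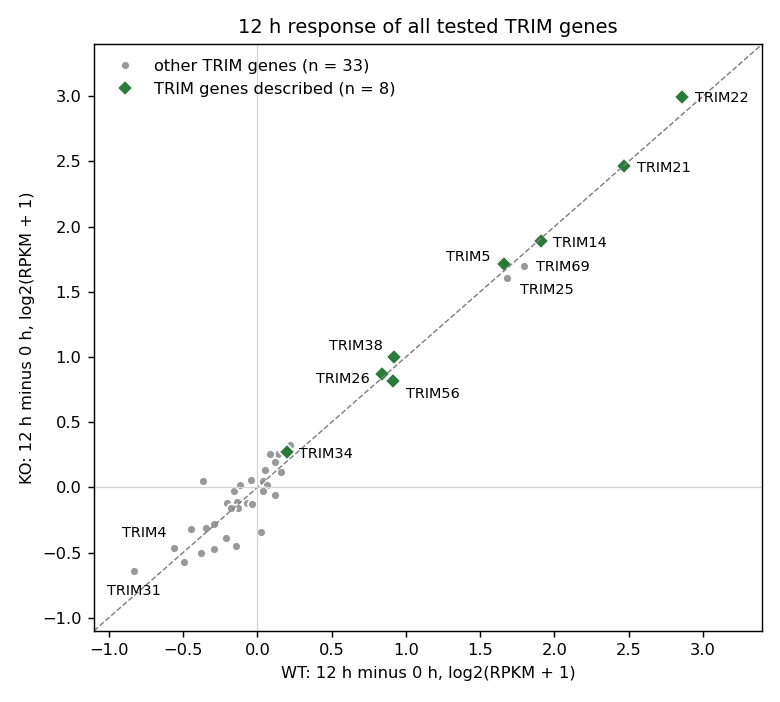
Change in log2(RPKM + 1) at 12 h in KO against that in WT for the 8 TRIM genes described (diamonds) and the other 33 tested (dots) with a dashed line marking equal values. TRIM69 and TRIM25 lie beside TRIM5, and most other TRIM genes lie near 0 or below.

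TRIM69 shows the core in capitals in its own window, and the window of TRIM25 holds the shorter element only.
TRIM69, chr15:44736456-44736485, minus strand, 62 bases before the start: ttgcttaagaGAAAGAGAAAccctcattag
TRIM6, the neighbour of TRIM34 in the chromosome 11 cluster with TRIM5 and TRIM22, held neither and fell by 0.38 in WT and by 0.50 in KO at 12 h, where TRIM34 rose. TRIM5 and TRIM22 overlap each other on opposite strands. How the strand was used in counting is not given in the sources used here. Reads of this pair may therefore not be told apart, and the same holds for TRIM14 and NANS. On its own strand TRIM5 also overlaps protein-coding genes that are not listed, among them AC104389.4. Whether their reads entered its values was not tested.

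A list of 16 genes with reported antiviral roles held PML, itself a TRIM protein, and 15 of the 33 TRIM genes just counted. Of these 16 the WT cells showed 4 risen and 6 fallen at 12 h, and the KO cells 4 and 4, beside the same shares of all genes. With median-of-ratios scaling the numbers at 12 h were 4 and 3 in each genotype. Of 13280 genes 2835 rose and 2764 fell with it in WT, and 3104 and 3074 in KO. At 48 h 3 of the 16 had risen and 1 had fallen in each genotype. There 6.52% of all genes were called higher and 6.3% lower in WT, and 5.9% and 7.42% in KO. PML, the scaffold of the bodies that hold SP100, rose by 1.31 in WT and 1.51 in KO at 12 h and by 0.78 and 0.98 at 48 h. Between genotypes limma called 0 of these 16 genes at each time, against 4.89%, 3.62% and 4.19% of all genes at 0, 12 and 48 h. At these times 2, 0 and 1 had an unadjusted p under 0.05, against 2400, 2256 and 2173 of 13280 genes.

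A chosen list held 28 genes for conjugating and ubiquitin-removing enzymes, sensors, adaptors and other possible partners or targets of TRIM proteins. Of these, 11 had risen and 3 had fallen in WT at 12 h, with 12 and 4 in KO. Of all genes 15.1% were called higher and 29.8% lower in WT, and 16% and 32.8% in KO. With median-of-ratios scaling 13 rose and 2 fell in WT, against 2835 and 2764 of 13280 genes. KO had 14 and 2, against 3104 and 3074. At 48 h 6 had risen and 0 had fallen in WT, where 6.52% of all genes were called higher and 6.3% lower. In KO 4 had risen and 1 had fallen, where 5.9% of all genes were called higher and 7.42% lower. RIGI, the RNA sensor, rose by 5.07 in WT and 5.41 in KO, IRF7, a transcription factor of interferon genes, by 4.26 and 4.79, IFIH1, the sensor MDA5, by 4.15 and 4.00, and UBE2L6, the conjugating enzyme for ISG15, by 3.92 and 3.97, all at 12 h. STING1, the adaptor that TRIM56 and TRIM38 modify, was lower in KO by 0.24 untreated, 0.29 at 12 h and 0.22 at 48 h. RIGI was lower in KO by 0.42 untreated and 0.24 at 48 h, and UBE2L6 by 0.22 and 0.20, whereas IRF7 was higher in KO by 0.86 at 12 h and 0.63 at 48 h.

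Genes with the pattern most like each member were found by Pearson r of log2(RPKM + 1) over the 18 libraries among 12392 named genes. The points share their 6 groups, so r mostly describes the interferon time course. TRIM5 was most like TAP1, a peptide transporter (r = 0.999), TRIM14 like USP18, which removes ISG15 (r = 0.998), TRIM22 like SAMHD1, a dNTP hydrolase that restricts viruses (r = 0.999), and TRIM21 like SAMD9 (r = 0.997). TRIM38 was most like GBP1 (r = 0.985), TRIM26 like PLEKHA4 (r = 0.989) and TRIM56 like PARP14 (r = 0.966). Of the 24 leading pairs, 3 for each member, 16 stayed with a pseudocount of 0.1 and 6 with Spearman's rho.

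For TRIM34 the leading patterns included those of BIRC3 (r = 0.923) and B2M (r = 0.922). Both were higher at 48 h than at 12 h on average, B2M at 920 RPKM, 2539 and 4401 RPKM in WT at 0, 12 and 48 h, and BIRC3 at 3.51, 4.46 and 7.64 RPKM. Among the members, r was 0.889 to 0.994 between the other 7 and 0.549 to 0.778 between TRIM34 and each of them.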

How the data were processed

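The authors deposited 1 table of RPKM values for 18 libraries. Per the submitters' processing notes cutadapt, STAR 2.6.1, RSEM 1.3.0, limma 3.50.3 and hg19 were used, in roles that are not stated. The annotation, gene filter and use of strand are not given in the sources used here. Gene IDs were matched to symbols for 15666 of 16472 genes.

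RPKM are not counts, so log2(RPKM + 1) was fitted in limma 3.58.1 (R 4.3.3) with 6 group means and a variance trend. Genes had to reach 1 RPKM in 3 or more libraries. For each of 11 comparisons the Benjamini-Hochberg adjustment covered all 13280 genes that did so, and the threshold was 0.05. A change on this scale understates that of low genes. The model was also run on simulated data with independent noise and changes in the WT 12 h group alone. That setting is simpler than these data, and its outcome is not used here.

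The members, the lists and the naming rule were chosen with earlier results of these data known. All members were named. Of the other TRIM genes, the rule named the 4 with the largest 12 h change in WT and those called between genotypes by at least 0.5, of each list those with the largest change or called between genotypes, and for each member the 3 most like genes, of which some are not reported here. TRIM16 and TRIM6 were named outside this rule, after their values were seen. Sequences are RefSeq, GRCh38.p14. Alternatives were a pseudocount of 0.1, no filter, only genes averaging 5 RPKM or more, scaling by median of ratios, the compared libraries alone, no variance trend, a replicate block and each library left out in turn.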

Additional observations from a re-analysis of the deposited data

How the results depend on the processing

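Over 2200 recomputed member differences (8 members, 11 comparisons, 25 alternatives), 2166 kept their side of the threshold, 29 lost a call, 5 gained one and 0 called values changed sign, while 34 that were uncalled in both fits changed sign. All 8 members stayed called higher at 12 and 48 h in KO and at 48 h in WT. The count of members called between genotypes was 0 untreated and 0 to 1 with each library left out: without untreated WT replicate 2 TRIM22 was called (-0.26, adjusted p = 0.0206), and without untreated KO replicate 2 TRIM21 (-0.23, adjusted p = 0.0419). At 48 h the count was 2, and it was 1 with the compared libraries alone and 1 to 2 with each library left out, TRIM38 being lost. With the replicate number as a block the count at 48 h was also 1. Whether equal replicate numbers mark paired samples is not stated. Deviations of same-numbered libraries from their group means had r of -0.10 to 0.16, over 0.1 in 2 of 45 pairs. Those of differently numbered libraries had r of -0.109 to 0.145, over 0.1 in 2 of 90. Such values cannot show whether samples were handled together. Total reads are unknown, so no counting error is given. Replicates are labelled as biological and nothing else describes them, so p-values measure the spread between these samples.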
